A study of Mus musculus with 20 samples.

Results

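The translation initiation and elongation factor genes were examined for peaks of ATF4, the bZIP transcription factor made during the integrated stress response. They were chosen by symbol as the protein-coding genes that begin with Eif1 to Eif6, Eef1 or Eef2 in a RefSeq gene table of mm10, without the eIF2 kinases (Eif2ak) and the eIF4E-binding proteins (Eif4ebp). This gave 64 genes, of which 63 lie on chromosomes 1 to 19 and X, the chromosomes that hold peaks, out of 21631 protein-coding genes there. The other gene, Eif2s3y, is on the Y chromosome and was left out of all counts. The cells were C2C12, a line of mouse myoblasts labelled wild type, given 100 nM thapsigargin, which blocks the calcium pump of the endoplasmic reticulum and causes ER stress, or DMSO, the solvent, for 6 h. ATF4 was mapped by CUT&Tag, in which an antibody directs a transposase to tag the DNA beside the protein. The series holds 20 samples in 10 groups of 2, and the 4 ATF4 samples are represented by 1 peak list per treatment, with 8619 peaks in thapsigargin and 803 in DMSO. How the 2 samples of a treatment were combined is not given in the sources used here. A peak has only a position and a width, so there is no replicate error and no test between conditions, and read depth is unknown. A longer list can come from more reads or a looser threshold as well as from more binding, and these cannot be told apart here. Peak lists hold no expression values, so the labelled cell type could not be checked against markers.

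Initiation begins when eIF2, bound to GTP, brings the initiator tRNA to the small ribosomal subunit, with eIF1, eIF1A, eIF5 and the many-subunit eIF3 on the same subunit. The eIF4 factors bind the mRNA cap and unwind the leader, eIF5B joins the subunits, and the eEF1 and eEF2 factors then carry elongation. eIF2B reloads eIF2 with GTP. In the integrated stress response, phosphorylation of the eIF2 alpha subunit blocks eIF2B, general initiation falls, and the Atf4 mRNA is translated more. ATF4 pairs with C/EBP proteins and others, and the pairs bind a composite C/EBP-ATF element.

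A gene is called marked below when a peak was centred no more than 1 kb from its start or its end. In thapsigargin 27 of the 63 translation factor genes (42.9%) were marked, where 15.1% of all protein-coding genes were. In DMSO 3 of 63 (4.76%) were marked, where 1.29% of all protein-coding genes were. The 3 genes were Eif1, Eif2s2 and Eif3c. All 3 were marked in thapsigargin too, as were 274 of all 278 protein-coding genes marked in DMSO. The other 24 of the 27 translation factor genes had a peak at an end in thapsigargin and none in DMSO. This was the usual case among marked genes. Of all protein-coding genes marked in thapsigargin, 8.39% were marked in DMSO too, close to the 11.1% of the 27 factor genes. Among protein-coding genes other than these factors, the shares were 15.02% (3240 of 21568) in thapsigargin and 1.28% (275 of 21568) in DMSO. With a limit of 500 bp, 25 factor genes in thapsigargin (background 12.5%) and 2 in DMSO (background 0.962%) were marked, and with 5 kb 29 (background 21.1%) and 4 (background 2.03%). Measured from annotated starts alone, 24 of 49 in thapsigargin (background 16.4%) and 3 of 49 in DMSO (background 1.38%) were. The marked genes fell into 7 of 9 factor classes, as the plot of shares by complex shows.

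**Figure D1:**
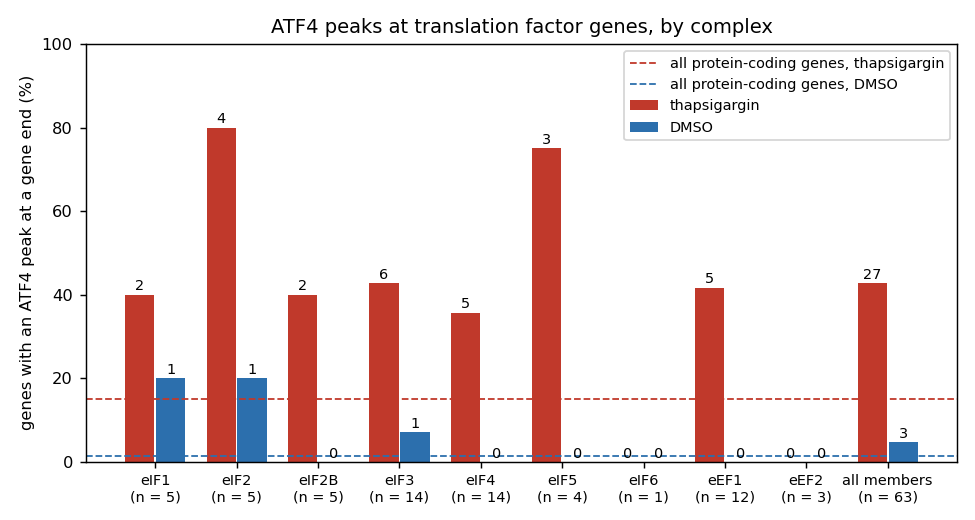
Share of the genes of each factor class, in percent, that were marked by ATF4 (a peak centre at most 1 kb from an end) in thapsigargin (red) and DMSO (blue). Numbers above the bars are gene counts, and dashed lines give the share of all protein-coding genes, 15.1% in thapsigargin and 1.29% in DMSO; eIF2 stands at 4 of 5 genes in thapsigargin, while eIF6 and the eEF2 class stand at 0.

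The sequence just before the transcription start is printed for 7 of the marked genes, 180 bases each, 5′ to 3′ on the strand of the gene, from RefSeq on GRCm38.p6, the assembly to which mm10 corresponds. Eif1, Eif2s2 and Eif3c are shown because they were marked in both lists. Eif4a1 and Eif5b had the widest thapsigargin peaks of all 27, and Eif2s3x and Eif3f hold a match to a searched motif before the start. The match of the marked Eif3j1 begins 26 bases past its start, outside such a stretch, so Eif3j1 is not printed. Capitals mark these matches, in Eif2s3x the C/EBP-ATF composite TGATGNAA read on the other strand, and in Eif1 and Eif3f the AP-1 motif TGANTCA. The other 4 sequences hold no match.
Eif1, chr11:100319769-100319948, plus strand: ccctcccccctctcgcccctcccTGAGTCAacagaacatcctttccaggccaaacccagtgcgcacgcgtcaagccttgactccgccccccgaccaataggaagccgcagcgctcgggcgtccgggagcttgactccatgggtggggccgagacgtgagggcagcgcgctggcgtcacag
Eif2s2, chr2:154892907-154893086, minus strand: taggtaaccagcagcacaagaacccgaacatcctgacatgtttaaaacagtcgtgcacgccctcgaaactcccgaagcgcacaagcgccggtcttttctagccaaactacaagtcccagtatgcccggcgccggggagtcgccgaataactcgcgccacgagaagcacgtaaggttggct
Eif3c, chr7:126566367-126566546, minus strand: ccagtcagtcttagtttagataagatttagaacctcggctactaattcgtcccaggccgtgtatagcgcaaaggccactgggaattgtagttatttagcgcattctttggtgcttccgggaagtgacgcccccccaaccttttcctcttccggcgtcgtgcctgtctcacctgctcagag
Eif2s3x, chrX:94212652-94212831, minus strand: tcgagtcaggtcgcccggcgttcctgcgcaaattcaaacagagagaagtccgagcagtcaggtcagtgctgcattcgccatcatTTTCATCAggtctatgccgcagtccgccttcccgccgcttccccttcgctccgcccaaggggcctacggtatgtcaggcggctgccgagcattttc
Eif3f, chr7:108934235-108934414, plus strand: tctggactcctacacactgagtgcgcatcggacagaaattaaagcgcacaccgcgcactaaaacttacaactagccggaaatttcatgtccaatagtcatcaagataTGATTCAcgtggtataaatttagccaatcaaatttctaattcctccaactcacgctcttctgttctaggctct
Eif4a1, chr11:69672424-69672603, minus strand: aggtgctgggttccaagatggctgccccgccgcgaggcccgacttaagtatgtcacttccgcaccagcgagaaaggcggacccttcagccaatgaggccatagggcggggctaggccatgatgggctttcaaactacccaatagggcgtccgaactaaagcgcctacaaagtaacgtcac
Eif5b, chr1:37997830-37998009, plus strand: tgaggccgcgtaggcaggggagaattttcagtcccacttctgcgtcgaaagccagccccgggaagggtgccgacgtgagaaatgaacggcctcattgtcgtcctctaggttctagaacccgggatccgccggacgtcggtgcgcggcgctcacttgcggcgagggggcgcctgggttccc

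The eIF2 class had the highest share in thapsigargin, 4 of 5 genes, against 1 of 5 in DMSO, where the eIF1 class had the same share. All 3 genes of the trimer on these chromosomes were marked in thapsigargin. Eif2s2, which encodes the beta subunit, had a thapsigargin peak at chr2:154891967-154893402, 1436 bp wide, and a DMSO peak at chr2:154892070-154893231, 1162 bp wide. The DMSO peak lay inside the thapsigargin peak, and the centres, 221.5 bp and 255.5 bp past the transcription start, were 34 bp apart. Eif2s1, which encodes the alpha subunit that the stress kinases phosphorylate, had a thapsigargin peak of 1011 bp at chr12:78861276-78862286, centred 291 bp before the start of the gene. The nearest DMSO peak to Eif2s1 was 907 kb away. That thapsigargin peak was centred closer to an end of the neighbouring gene Atp6v1d (227 bp), which is read the other way. Atp6v1d encodes a subunit of the vacuolar proton pump. The peak thus cannot be given to Eif2s1 alone. Eif2s3x, which encodes the gamma subunit that binds GTP, had a thapsigargin peak of 1252 bp at chrX:94212379-94213630, centred 354 bp before the start, and its nearest DMSO peak was 7652 kb away. Eif2a, which encodes a separate initiation factor not in the trimer, had a thapsigargin peak of 1091 bp at chr3:58525226-58526316. Its centre lay 50 bp before the start of Eif2a and 113 bp from an end of Serp1, a stress-associated ER protein gene read the other way.

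Eif2d, the fifth gene of the class, was the only factor gene with a peak in its body and none at an end, in either list. Its product can deliver tRNA to the ribosome without GTP. The thapsigargin peak, 1750 bp wide at chr1:131183744-131185493, and the DMSO peak, 673 bp wide at chr1:131184271-131184943, lay inside the gene, 3.04 kb and 3.05 kb from its 3′ end. The body-only share was thus 1 of 63 in thapsigargin, where 8.30% of all protein-coding genes had such a peak, and 1 of 63 in DMSO, where 1.29% had. A marked gene cannot count as body-only, so the high marked share of the factors in thapsigargin by itself lowers their body-only share. Whether this accounts for the whole difference was not tested. Apart from Eif2d, the read-through gene Eef1akmt4-ece2 held a further thapsigargin peak inside, 10.7 kb from the nearer end.

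Of the 5 eIF2B subunit genes, 2 were marked in thapsigargin and 0 in DMSO. Eif2b5 encodes the catalytic epsilon subunit, and its peak at chr16:20498290-20499077 was 788 bp wide, narrower than most in the list, with its centre 111.5 bp outside the 5′ end of the gene. Eif2b4 encodes the delta subunit, part of the regulatory portion that senses phosphorylated eIF2, and its peak at chr5:31192614-31193964 was 1351 bp wide. That peak was centred 150 bp from Eif2b4 and 27 bp from Snx17, the neighbour read in the opposite direction. The nearest thapsigargin peaks to Eif2b1, Eif2b2 and Eif2b3 were 130 kb, 29.7 kb and 31.3 kb away.

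In the eIF1 class 2 of 5 genes were marked in thapsigargin and 1 of 5 in DMSO. Eif1 encodes the factor that guards start codon choice. Its thapsigargin peak at chr11:100319752-100321357 was 1606 bp wide and its DMSO peak at chr11:100319797-100321328 was 1532 bp wide, with centres 8 bp apart. Both were centred past the transcription start, by 606 bp in thapsigargin and 614 bp in DMSO, inside a gene of 2151 bp, and both covered the start. Eif1ad, a gene with an eIF1A-like domain, had a thapsigargin peak of 1064 bp at chr19:5366466-5367529. That peak was centred 184.5 bp from the start of Eif1ad and 121.5 bp from an end of Banf1, which is read the other way. For the genes of the eIF1A proteins, Eif1a and Eif1ax, and for Eif1b, the nearest thapsigargin peaks were 72.1 kb, 342 kb and 239 kb away.

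Among the eIF3 genes 6 of 14 were marked in thapsigargin and 1 of 14 in DMSO. eIF3 is the largest initiation complex and holds the mRNA and the other factors on the small subunit. Eif3c, for a core subunit, had nearly the same peak in both lists, 887 bp at chr7:126565731-126566617 in thapsigargin and 888 bp at chr7:126565738-126566625 in DMSO, centred 192 bp and 184.5 bp past the start. The DMSO peak was thus 1 bp the wider, whereas in only 20 of the 799 overlapping pairs of the whole lists was the DMSO peak at least as wide, and the median ratio of thapsigargin to DMSO width was 1.56. At Eif1 and Eif2s2 that ratio was 1.05 and 1.24.

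The other 5 marked eIF3 genes had a peak in thapsigargin alone. Eif3a, for the large scaffold subunit, and Eif3d, for a subunit that can bind the mRNA cap, had peaks of 936 bp at chr19:60790216-60791151 and 1277 bp at chr15:77970174-77971450 centred 9.5 bp and 12 bp past the start, the nearest to a start among the marked factors. Eif3e had the widest peak of the class, 1489 bp at chr15:43282330-43283818, centred 338 bp from an end of the gene. Eif3f had the narrowest, 715 bp at chr7:108934136-108934850, centred 78 bp past the start. Eif3j1, for a loosely bound subunit, had a peak of 841 bp at chr2:122028605-122029445 centred 445 bp past the start, and this was the only one of the 24 marked genes with an annotated start whose thapsigargin peak did not cover it. Eif3j2, a second gene for this subunit, had its nearest thapsigargin peak 41.5 kb away. Near-identical sequence between copies could affect read placement there, and this was not tested. The remaining eIF3 genes, Eif3b, Eif3g, Eif3h, Eif3i, Eif3k, Eif3l and Eif3m, lay between 6.22 kb (Eif3g) and 150 kb (Eif3k) from a thapsigargin peak.

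In the eIF4 class 5 of 14 genes were marked in thapsigargin and 0 in DMSO. Both genes for the cytosolic helicase eIF4A were among them. Eif4a1 had the widest peak of all the factor genes, 1903 bp at chr11:69670953-69672855, wider than or equal to 96.3% of the thapsigargin list. Eif4a2 had 1349 bp at chr16:23107163-23108511, and both peaks were centred past the start, by 519 bp and 369 bp. Eif4b and Eif4h, for the helpers of that helicase, had 1244 bp at chr15:102073390-102074633 and 1000 bp at chr5:134638831-134639830, centred 238.5 bp and 78.5 bp past the start. Eif4b was the only factor gene with a thapsigargin peak at each end, the other being 951 bp wide at chr15:102097362-102098312 and centred 664 bp beyond the 3′ end. Eif4e, for the cap-binding protein, had 996 bp at chr3:138525929-138526924, centred 236 bp past the start and 5.5 bp from an end of the miRNA gene Mir1956. None of the eIF4G scaffold genes was marked, with the nearest thapsigargin peaks 24.5 kb (Eif4g1), 39.6 kb (Eif4g2) and 119 kb (Eif4g3) away. The same held for the other cap-binding genes, Eif4e2 at 31.9 kb, Eif4e1b at 95.8 kb and Eif4e3 at 136 kb. Eif4a3, an exon junction helicase, its copy Eif4a3l1 and Eif4enif1, whose product carries eIF4E, lay 72.9 kb to 149 kb from a thapsigargin peak.

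Of the eIF5 genes 3 of 4 were marked in thapsigargin and 0 in DMSO. Eif5, which makes eIF2 hydrolyse its GTP, had a peak of 1114 bp at chr12:111537523-111538636, centred 21.5 bp before the start. Eif5b, for the factor that joins the ribosomal subunits, had 1862 bp at chr1:37996619-37998480. Its centre was 460.5 bp before Eif5b and 255.5 bp from an end of Txndc9, which is read the other way. Eif5a, for the factor that carries hypusine and helps at stalling sites, had 893 bp at chr11:69921128-69922020, centred 384 bp inside the 5′ end of a gene with 6 annotated starts. Eif5a2, its second form, lay 6.69 kb from a thapsigargin peak, and the single gene Eif6 52.2 kb.

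In the eEF1 class 5 of 12 genes were marked in thapsigargin and 0 in DMSO. Eef1a1, for the main carrier of aminoacyl-tRNA, had a peak of 1443 bp at chr9:78480915-78482357, centred 88 bp past the start. Eef1d and Eef1g, for subunits of the exchange factor that reloads eEF1A, had 560 bp at chr15:75909047-75909606 and 1068 bp at chr19:8966267-8967334. They were centred 457.5 bp and 240.5 bp from an end of their genes, and the Eef1d peak was the narrowest of the 27. The same peak of 1450 bp at chr16:20610618-20612067 marked Eef1akmt4, a lysine methyltransferase gene, and the read-through Eef1akmt4-ece2, which have the same start, and its centre lay 258.5 bp before it. Counting for each gene the peak nearest to an end, 26 peaks marked the 27 genes. Eef1b2, for another exchange factor subunit, had the most distant thapsigargin peak of all the factor genes (394 kb). Eef1a2, the form of nerve and muscle, lay 182 kb from one. The modifying enzyme genes Eef1akmt1, Eef1akmt2, Eef1akmt3 and Eef1aknmt and the synthetase-bound Eef1e1 lay between 2.54 kb (Eef1akmt2) and 189 kb (Eef1akmt1) away. None of the eEF2 class was marked: Eef2, the translocation factor, lay 29.7 kb, its kinase Eef2k 129 kb and its methyltransferase Eef2kmt 10.2 kb from a thapsigargin peak.

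The distances left a gap between the marked and the unmarked factor genes. Whether other gene sets of this size show such a gap was not examined. Every marked gene had its nearest thapsigargin peak centred within 606 bp of an end, and the closest of the 36 unmarked genes, Eef1akmt2, had it at 2.54 kb. Only 2 of these 36 had a thapsigargin peak within 5 kb and 4 within 10 kb, while 20 had none within 50 kb and 14 none within 100 kb. In DMSO 53 of the 60 unmarked genes had no peak within 50 kb. The median distance from a factor gene to the nearest peak was 10.2 kb in thapsigargin and 673 kb in DMSO, against 49.8 kb and 844 kb for other protein-coding genes. Among genes unmarked in thapsigargin, the median to the nearest thapsigargin peak was 63.7 kb for the factors and 72.2 kb for other genes. The unmarked factors were thus close to other unmarked genes in this distance.

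**Figure D2:**
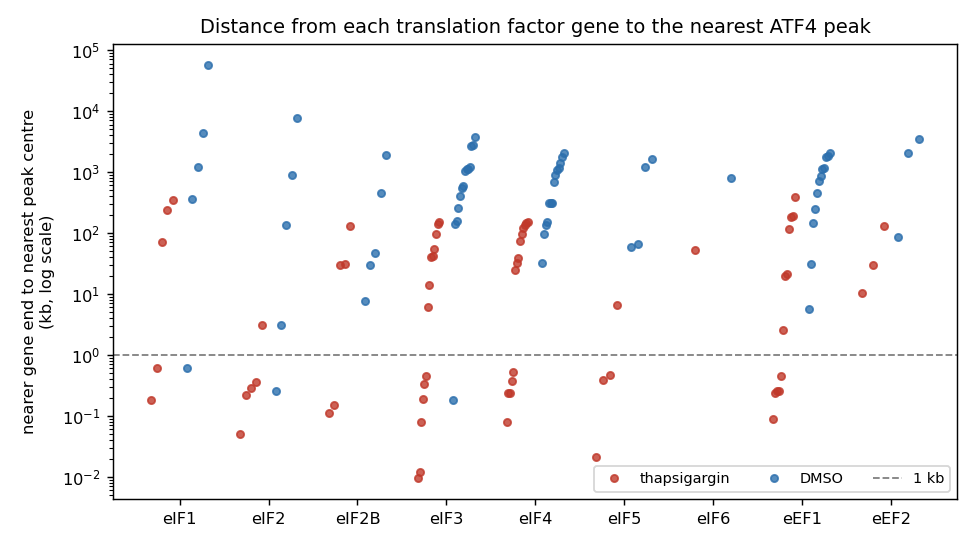
Distance in kb, on a log scale, from the nearer end of each of the 63 factor genes to the nearest ATF4 peak centre, in thapsigargin (red) and DMSO (blue), by factor class. Below the dashed line at 1 kb are 27 genes in thapsigargin and 3 in DMSO, and no gene lies between 606 bp and 2.54 kb in thapsigargin.

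The promoter table gave a start and strand for 49 of the 63 factor genes, among them 24 of the 27 marked in thapsigargin. Eef1d, Eef1g and Eif3e have no entry there. In all 24 the nearest thapsigargin peak was at the 5′ end, and in 23 it covered an annotated start. Of the other protein-coding genes marked in thapsigargin and with a strand, 95.2% (2544 of 2671) had the peak at the 5′ end. Among the 22 marked factor genes with 1 annotated start, the centre was past the start in 13 and before it in 9, where other genes divided into 1010 past and 1001 before. The median distance of centre and start was 207 bp for the factors and 198 bp for other genes. A further coding gene had an end within 1 kb of the peak centre at 9 of the 27 marked factors (33.3%), Eef1akmt4 and its read-through, Eef1d, Eef1g, Eif1ad, Eif2a, Eif2b4, Eif2s1 and Eif5b. Among other marked genes this share was 34.0%.

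**Figure D3:**
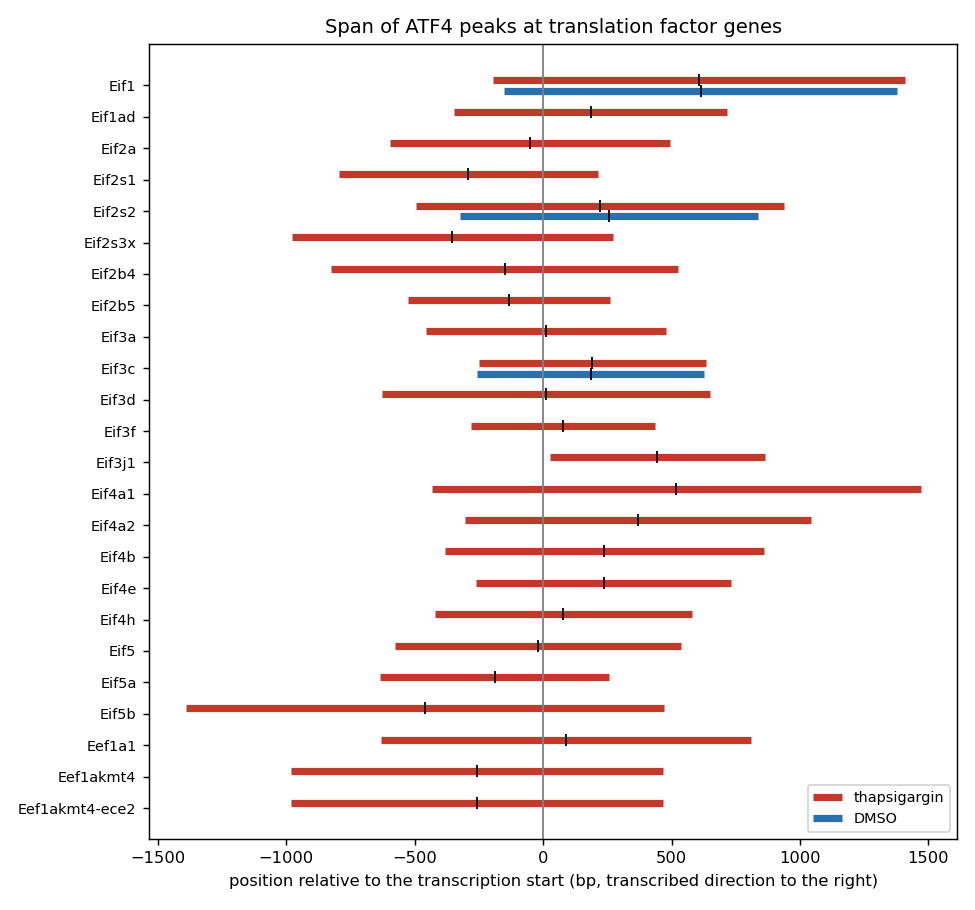
Span of each ATF4 peak at the 24 marked factor genes with an annotated start, in bp from the nearest start, with transcription to the right, for thapsigargin (red) and DMSO (blue). Black ticks are peak centres; the thapsigargin peak covers the start at 23 genes and begins just past it at Eif3j1, and DMSO peaks stand at Eif1, Eif2s2 and Eif3c.

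Width was the only other value of a peak, and it is no measure of occupancy. The 27 factor genes had thapsigargin peaks of 560 bp to 1903 bp, with a median of 1114 bp, against 286 bp to 2766 bp and a median of 1034 bp at other marked genes. The quartiles were 966 bp and 1440 bp at the factor genes, against 798 bp and 1337 bp at other marked genes, so the distributions overlapped over most of their range. With the widest 803 thapsigargin peaks alone, as many as in the DMSO list, only Eif4a1 and Eif5b of the factors were marked (3.17%, where 1.32% of all protein-coding genes were). With the wider part of the list, 4310 peaks, 17 of 63 were marked (26.98%), where 7.56% of all protein-coding genes were. Among the 10 genes no longer marked were Eif2s1, Eif2b5, Eif3a, Eif3c, Eif4e and Eif5a.

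**Figure D4:**
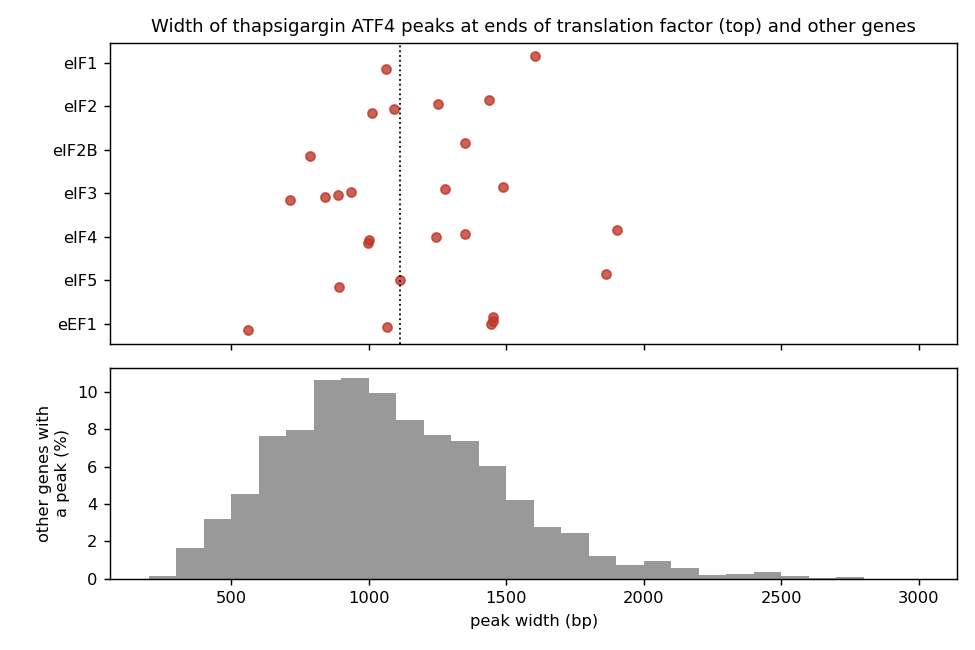
Width in bp of the thapsigargin peak at each of the 27 marked factor genes, by class (top, dotted line at the median of 1114 bp), and of the peaks at other marked protein-coding genes, as the percent of those genes in bins of 100 bp (bottom). The factor peaks range from 560 bp at Eef1d to 1903 bp at Eif4a1, inside the range of the other genes.

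The factor genes have promoters rich in CpG, and marked genes in general do too. Over the 300 bases of the promoter table, from 250 before to 50 after the start, the ratio of observed to expected CpG had a median of 0.863 in the 49 factor genes and 0.616 in 17225 other protein-coding genes. It was 0.827 in the other genes marked in thapsigargin and 0.529 in those not marked. With a ratio of 0.6 or more, 23 of 45 factor genes (51.1%) and 25.6% of other genes (2265 of 8845) were marked in thapsigargin. Below 0.6, 1 of 4 factor genes, Eif2b5, and 4.84% of other genes were marked. In DMSO the shares at 0.6 or more were 3 of 45 (6.67%) and 2.18%. Among the factors themselves, the ratio had a median of 0.868 in the 24 marked and 0.818 in the 25 unmarked genes. How far the CpG content goes with the mark at these genes was not tested.

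**Figure D5:**
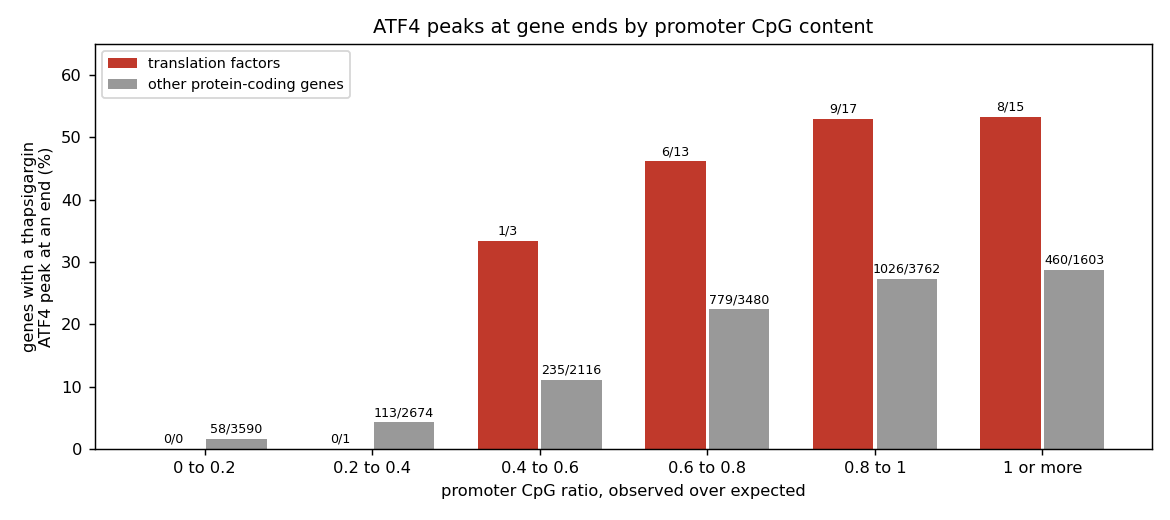
Percent of genes with a thapsigargin ATF4 peak at an end, for translation factors (red) and other protein-coding genes (grey), by the observed over expected CpG ratio of the promoter. Labels give marked over all genes in each bin; for ratios from 0.8 to 1 they are 9 of 17 factors and 1026 of 3762 other genes, and only 4 factors lie under 0.6.

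A search of the same promoters for 4 motifs, on both strands, found few matches in the factor genes. The C/EBP-ATF composite TGATGNAA was in 1 of the 24 marked factor promoters (4.17%), that of Eif2s3x, where it lies 96 bases before the start and 261 bp from the centre of the thapsigargin peak. Among the 25 unmarked factor genes 1 (4.0%) held it, Eef2k, the kinase gene of eEF2. Counted by gene, it was in 4.53% of other genes marked in thapsigargin, in 3.85% of those not marked and in 19.4% (45 of 232) of other genes marked in DMSO. None of the 3 factor genes marked in DMSO held it. The AP-1 motif TGANTCA was in the marked Eif1, Eif3f and Eif3j1 (12.5% of the 24) and in the unmarked Eif3l, against 5.39% of other genes marked in thapsigargin and 8.71% of those not marked. Over all 49 factor genes its share was 8.16%, close to the 8.19% of other genes. The AP-1 matches of Eif1, Eif3f and Eif3j1 lay 759.5 bp, 148 bp and 416 bp from the centres of their thapsigargin peaks. The CRE TGACGTCA was in none of the 24 marked factors and in the unmarked Eef2, against 5.39% (144 of 2671) of other genes marked in thapsigargin and 2.06% of those not marked. The C/EBP palindrome TTGCGCAA was in the unmarked Eif4g1, against 0.449% of other genes marked in thapsigargin and 0.206% of those not marked. Counted by promoter, where a gene with several starts counts once for each, the shares of all 21045 promoters were 3.45% for the composite, 7.04% for AP-1, 2.26% for the CRE and 0.223% for the palindrome. A match is a run of letters and not a shown binding site, and the window is much shorter than most peaks.

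Of 35 further translation genes, listed by hand, 14 (40.0%) were marked in thapsigargin and 3 (8.57%) in DMSO, where 15.1% and 1.29% of all protein-coding genes were. This list was chosen with earlier results of these data known, so its share is a description and no independent support. Genes around eIF2 phosphorylation were among the marked ones. Ppp1r15b, for the constitutive subunit of the eIF2 phosphatase, had a peak of 1432 bp in thapsigargin and 1270 bp in DMSO. Ppp1r15a, for its stress-induced subunit, had one of 1446 bp in thapsigargin alone. Of the eIF2 kinases, Eif2ak3 (PERK) and Eif2ak4 (GCN2) were marked in thapsigargin, with 1138 bp and 1021 bp, and Eif2ak1 and Eif2ak2 were not, with the nearest thapsigargin peaks at 6.93 kb and 15.05 kb. Etf1 and Gspt1, for the release factors eRF1 and eRF3, had thapsigargin peaks of 1574 bp and 1443 bp, and Etf1 also a DMSO peak of 1048 bp. Dhps, for one of the enzymes that form the hypusine of eIF5A, had 1765 bp in thapsigargin and 769 bp in DMSO. Abce1 (ribosome recycling), Ddx3x (a helicase), Denr (reinitiation), Gigyf2 (a repressor that acts with eIF4E2), Pabpc1 (poly(A) binding), Eif4ebp2 (a repressor of eIF4E) and Mknk2 (a kinase for eIF4E) were marked in thapsigargin alone. At Mknk2 the peak was at the 3′ end. Eif4ebp1, for another repressor of eIF4E, missed the 1 kb limit in both lists, with peaks of 2292 bp in thapsigargin and 1941 bp in DMSO centred 1.21 kb and 1.12 kb from the gene end. Among the 81 genes of cytosolic ribosomal proteins 21 (25.9%) were marked in thapsigargin and 1 (1.23%) in DMSO.

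Of the 27 factor genes marked in thapsigargin, 3 (11.1%) were marked in DMSO too, where 8.39% of all genes marked in thapsigargin were, a share close to that background. Conversely all 3 factor genes marked in DMSO were among the 27, and each of their DMSO peaks overlapped the thapsigargin peak at the same start. Nearly all genes behaved so: 274 of all 278 protein-coding genes marked in DMSO were marked in thapsigargin too. Of the 803 DMSO peaks, 799 overlapped a thapsigargin peak.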

How the data were processed

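Groups were taken from the sample titles. Per the submitters' processing notes, Trim Galore 0.6.10, Bowtie2, MACS2 2.2.7.1 and the build mm10 were used. Their roles, the threshold and any control are not stated there. The deposited lists hold peak starts and ends in bp, with no score or other value, so more reads or a looser threshold could lengthen a list and widen its peaks. The other 8 groups were not analysed here. Positions count from 1.

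Gene ends came from a RefSeq table of GRCm38.p6 and starts, strands and promoter sequences from a RefSeq promoter table. Distances run from the peak centre to the nearer gene end, and a peak counts for every gene within 1 kb. Overlap means at least 1 bp. With 1 list per treatment no test was made. The CpG ratio is the number of CG pairs times the length, over the product of C and G numbers, and the highest value was used for genes with several starts. Peak assignment was tested on simulated data. Every marked factor gene is named, and every other one with a distance or the range of its class. Factor classes follow the symbols. The members and lists were chosen with earlier results of these data known. The software was matplotlib 3.10.9, scipy 1.17.1, pandas 2.3.3, numpy 2.4.6 and Python 3.11.15.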

Additional observations from a re-analysis of the deposited data

How the results depend on the processing

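No paired analysis was possible because there is only 1 peak list per treatment, and for the same reason no replicate could be left out. Of 64 alternative values, 56 stayed within 1.5 times the reported count or, for the median width, inside its 95% interval (996 bp to 1436 bp). That interval runs over the genes of 1 peak list and measures no variation between experiments. In some settings a count could not change. All gene types as background alters the background alone, and the 803 widest thapsigargin peaks leave the DMSO list as it was. The tally is therefore no measure of stability. The thapsigargin count of 27 factor genes was 25 with centres within 500 bp, 28 within 3 kb, 29 within 5 kb, 27 by the peak edge, and 22 when a peak counted only for its nearest gene end, which dropped Eef1d, Eif1ad, Eif2b4, Eif2s1 and Eif5b. It was 24 of 49 by annotated starts. It was 17 with the wider part of each list and 2 with the 803 widest thapsigargin peaks, where the factor classes with a marked gene were 2 in place of 7 and 0 genes were marked in both lists. These settings hold fewer peaks by construction. The body-only counts of 1 in thapsigargin and 1 in DMSO were 3 and 2 with a limit of 500 bp, as Eif1 and Eif4a1 in thapsigargin and Eif1 in DMSO then counted there, and 0 and 0 with 5 kb. In 2 settings added after seeing the data, the count was 26 without the read-through gene and 24 of 52 without modifying enzymes and binding proteins. The DMSO count of 3 ranged from 2 to 4. Of 90 alternative values for single factor classes in thapsigargin, 74 stayed within 1.5 times. These 74 include the eIF6 and eEF2 counts, which were 0 in the main setting and in every alternative. With the wider part of each list eIF3 had 2 marked genes in place of 6, eIF4 3 in place of 5 and eIF2B 1 in place of 2. With the 803 widest peaks eIF4 and eIF5 had 1 each and the other classes 0. The eEF1 count of 5 was 3 by annotated starts and 3 without modifying enzymes and binding proteins. The eIF1 count of 2 was 1 within 500 bp, by nearest gene end and without modifying enzymes and binding proteins, and the eIF2B count of 2 was 1 by nearest gene end. With all gene types as background, 8.45% were marked in thapsigargin and 0.702% in DMSO.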
